A study of Mus musculus with 6 samples.

Results

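The BCL2 family sets the threshold at which a cell commits to mitochondrial apoptosis, and 10 of its genes were read here in mouse ovarian surface epithelial (OSE) cells before and after spontaneous transformation. The genes were chosen by symbol, as 4 survival genes (*Bcl2*, *Bcl2l1*, *Bcl2l2* and *Mcl1*), 3 effector genes (*Bax*, *Bak1* and *Bok*) and 3 BH3-only genes (*Bid*, *Bcl2l11* and *Bmf*). All 10 were found among the 20405 genes of the deposited table. A gene with several probe sets is represented by its brightest one, averaged over all 6 arrays. M0505 is a line of OSE cells of FVB/N mice, used at early passage, and STOSE is the transformed line that long-term culture of M0505 gave rise to. Both lines were grown in the same medium, which held serum and epidermal growth factor, and the sample titles name no treatment. Each line was hybridized to Affymetrix Mouse Gene 1.0 ST arrays in 3 biological replicates. Each group is 1 cell line, so the spread between arrays is that between samples of a line and not between animals or independent transformations.

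In healthy cells the survival proteins BCL2, BCL-XL (from *Bcl2l1*), BCL-W (from *Bcl2l2*) and MCL1 hold BAX and BAK in check at the outer mitochondrial membrane. BH3-only proteins such as BID, BIM (from *Bcl2l11*) and BMF are switched on by stress, bind the survival proteins or the effectors, and tip the balance towards pores that release cytochrome c. Many of these proteins are set by phosphorylation, cleavage and turnover, which an array of RNA does not read. Values are log2 units of robust multi-array average (RMA) signal, in which 1 unit is a 2-fold difference. Because probes differ in affinity, levels of different genes were not set against each other, and only differences between the lines were compared. In bulk RNA, fewer cells with a transcript and less transcript per cell cannot be told apart.

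The arrays were alike in depth of signal, with medians over all probe sets from 5.64 to 5.68, and Pearson's r across genes, which are not independent replicates, was 0.997 to 0.999 within a line and 0.943 to 0.950 between lines. The signal of 1134 olfactory receptor probe sets, taken to be silent, had a 95th percentile of 4.74, and all 10 members lay above it in both lines. Of 11 OSE markers, 8 fell and 0 rose, led by the keratins *Krt19* (−5.56) and *Krt8* (−4.55), while *Wt1* and *Msln* were still at 10.76 and 10.52 in STOSE cells. The epithelial cadherin gene *Cdh1* was near background in both lines, at 4.79 and 4.82. Markers of other cells were only partly at background. Both lines lay under 4.74 for 6 of 8 leukocyte, 2 of 6 endothelial and 4 of 8 granulosa and theca markers. In summed linear signal the leukocyte list ran from 849 to 1105 in M0505 and from 250.2 to 290.2 in STOSE cells, the endothelial list from 860 to 940.4 and from 147 to 154, and the granulosa and theca list from 1095 to 1213 and from 438 to 442. The drops rested on *Cd68*, *Kdr* and *Inha*, and their part in the results on BCL2 family genes was not tested. Among markers under 4.74 in both lines, *Ptprc* lay at 3.79 in M0505 and 3.81 in STOSE cells. *Pecam1* lay at 4.69 and 4.33 and *Fshr* at 4.31 and 4.42. Other granulosa and theca markers lay above 4.74 in both lines. These were *Foxl2*, at 6.76 in M0505 and 6.39 in STOSE cells, *Inhba*, at 7.47 and 7.73, and *Inha*, at 9.61 and 5.68.

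The start regions of the members are shown first because *Bok* and *Bid*, which were higher in STOSE cells, and *Bcl2* and *Bcl2l2*, which were lower, each have a single start in the RefSeq table used, and had the largest differences among the members for which that holds. Each line gives the 250 bases before the start, 5′ to 3′ on the strand of the gene, in the mouse reference GRCm38.p6. That is the sequence of the reference strain and not of the FVB/N cells. Capitals mark GC boxes (GGGCGG on either strand). *Bok* lies at chr1:93685325-93685574 (+ strand), *Bid* at chr6:120916825-120917074 (− strand), *Bcl2* at chr1:106714291-106714540 (− strand) and *Bcl2l2* at chr14:54883175-54883424 (+ strand).
Bok: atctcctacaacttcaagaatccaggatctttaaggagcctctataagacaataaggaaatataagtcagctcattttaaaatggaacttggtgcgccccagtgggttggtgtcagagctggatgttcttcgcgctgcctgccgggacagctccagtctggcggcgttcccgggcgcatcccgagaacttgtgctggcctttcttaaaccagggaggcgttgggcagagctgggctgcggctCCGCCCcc
Bid: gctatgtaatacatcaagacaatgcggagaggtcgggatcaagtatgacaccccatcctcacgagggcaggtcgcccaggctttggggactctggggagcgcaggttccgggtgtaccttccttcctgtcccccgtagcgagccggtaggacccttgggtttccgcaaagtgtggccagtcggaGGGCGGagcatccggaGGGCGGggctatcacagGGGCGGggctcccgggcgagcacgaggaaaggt
Bcl2: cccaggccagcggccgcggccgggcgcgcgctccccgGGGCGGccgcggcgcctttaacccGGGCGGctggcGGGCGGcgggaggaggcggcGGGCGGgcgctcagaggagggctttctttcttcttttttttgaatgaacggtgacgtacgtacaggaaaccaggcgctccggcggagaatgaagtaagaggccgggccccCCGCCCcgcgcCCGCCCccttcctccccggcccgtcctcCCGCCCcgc
Bcl2l2: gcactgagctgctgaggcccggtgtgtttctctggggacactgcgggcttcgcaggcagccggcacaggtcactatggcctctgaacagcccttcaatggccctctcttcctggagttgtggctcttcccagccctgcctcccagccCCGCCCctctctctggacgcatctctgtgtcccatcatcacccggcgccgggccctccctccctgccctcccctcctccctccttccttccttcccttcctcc
The *Bcl2* window held 7 GC boxes, the *Bid* window 3, and the *Bok* and *Bcl2l2* windows 1 each, so the element was present upstream of members that rose and of members that fell. Of the 15 windows of the members, 8 held a GC box (7 of the 10 members), against 32.7% of the 32851 windows of all genes. The windows of the members were also richer in CG dinucleotides, with a median of 12 against 6. No TATA box (TATAAA) and no cAMP response element (TGACGTCA) was found in the 15 windows, against 12.4% and 1.55% of all windows. A CCAAT box (CCAAT) was found in 4 of the 15 windows, those of *Bmf* and *Bcl2l11*, against 33.8% of all windows. An E-box (CACGTG) was in 1 window, of *Bax* (6.02% of all windows). A FOXO motif (GTAAACA) was in 1 window, of *Bcl2l11* (3.17%), and an E2F motif (TTTNGCGC) in 1, of *Bcl2l1* (1.13%). Both strands were searched, and 0 matches of different motifs overlapped. A match is a run of letters and not a bound site.

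Among the members, 4 rose, 3 fell and 3 did not pass the test in STOSE cells, and 43.5% of all genes did not pass. Here and below, rose and fell mean an adjusted p under 0.05 from limma, with Benjamini-Hochberg adjustment over all 20405 genes, and a gene is called changed when the difference is also at least 2-fold. The 3 effector genes all rose and *Bid* rose with them, whereas *Bcl2*, *Bcl2l2* and *Bmf* fell. Past 2-fold, 2 of the 10 were called, *Bok* higher and *Bcl2l2* lower, against 12.5% of all genes (4.90% higher and 7.59% lower). At the adjusted p alone 7 of 10 passed, against 56.5% of all genes (31.6% higher and 24.8% lower), so the share of members that differed lay near the background of this comparison. The median difference of the members was 0.02 log2 units against 0.08 for all genes. The arrays of the lines did not overlap for the same number of members, 7 of 10, against 64.6% of all genes. By size of difference over all genes, *Bok* stood at the 94.4th percentile, *Bcl2l2* at the 91.0th, and *Bcl2l1* at the 1.02nd.

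**Figure D1:**
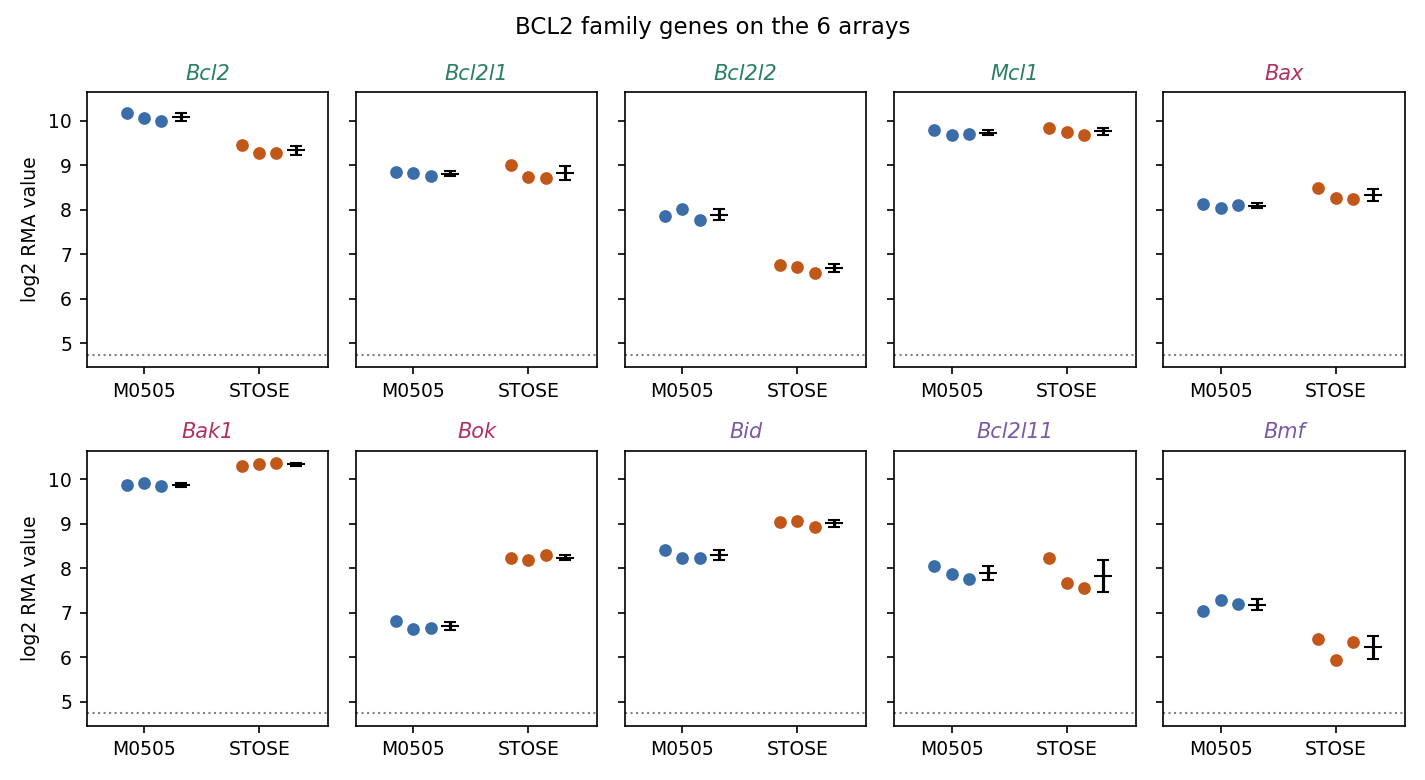
Log2 RMA value (vertical axis) of the 10 BCL2 family genes on each of the 3 M0505 arrays (blue) and 3 STOSE arrays (orange), with replicates 1 to 3 from left to right and the mean ± SD in black. Gene names are green for survival genes, red for effectors and purple for BH3-only genes, and the dotted line is the olfactory receptor 95th percentile of 4.74. The lines are apart in 7 genes and overlap in *Bcl2l1*, *Mcl1* and *Bcl2l11*.

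Of the survival genes, *Bcl2l2*, which encodes BCL-W, differed most. Its log2 values were 7.86, 8.02 and 7.77 on the M0505 arrays and 6.75, 6.72 and 6.58 on the STOSE arrays (probe set 10415111). Every STOSE array lay below every M0505 array by more than a unit. The drop of the gene, which fell by 1.20 log2 units (standard error 0.08, 95% interval −1.39 to −1.01, adjusted p = 4.73e-06 from limma), was from 7.89 ± 0.13 (SD, n = 3) to 6.68 ± 0.09 (SD, n = 3) and made it 2.30-fold lower. The interval reaches close to the 2-fold line, and omitting any single array kept the estimate between −1.26 and −1.13.

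*Bcl2*, the founding survival gene of the family, was at 10.17, 10.07 and 9.99 in M0505 cells and at 9.46, 9.27 and 9.28 in STOSE cells (probe set 10357043). The lines did not overlap. It fell by 0.74 (standard error 0.08, 95% interval −0.92 to −0.56, limma adjusted p = 6.32e-05), which is 1.67-fold lower and under the 2-fold limit. A second *Bcl2* probe set (10349102) lay under the olfactory receptor percentile in both lines, at means of 4.21 and 4.26, and reads no difference. When both probe sets were averaged the fall of *Bcl2* shrank to 0.34, still past the adjusted p.

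The other two survival genes did not pass the test. *Bcl2l1*, the source of BCL-XL, was at 8.85, 8.83 and 8.76 in M0505 cells and at 8.996, 8.74 and 8.71 in STOSE cells. The STOSE arrays bracket the M0505 arrays. The 95% interval of the difference was −0.19 to 0.20 (adjusted p = 0.971), which leaves room for changes of that size in either direction. *Mcl1*, whose protein is short-lived and renewed by constant synthesis, was at 9.80, 9.69 and 9.71 in M0505 cells and at 9.84, 9.76 and 9.69 in STOSE cells. The lines overlapped, and the interval was −0.12 to 0.17 (adjusted p = 0.749). Both results depend on scaling: with each array centred on the median of all genes, which adds 0.20 to every difference, *Bcl2l1* (0.20, adjusted p = 0.0389) and *Mcl1* (0.23, adjusted p = 0.00918) passed the test. The median of all genes was then 0.28, so both lay below the typical gene. The same centring turned the split of all called genes from 1000 higher and 1548 lower to 1466 higher and 1177 lower.

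All 3 effector genes rose. *Bok*, a relative of *Bax* and *Bak1* whose protein is kept low by turnover in the endoplasmic reticulum, had the largest difference of the family members. It was at 6.81, 6.64 and 6.66 in M0505 cells and at 8.22, 8.18 and 8.30 in STOSE cells (probe set 10348858). The lowest STOSE array stood more than a unit above the highest M0505 array. It rose from 6.70 ± 0.09 to 8.23 ± 0.06 (SD, n = 3 each), a difference of 1.53 (standard error 0.07, 95% interval 1.37 to 1.69, limma adjusted p = 5.22e-07), which is 2.88-fold. Omitting any single array gave estimates between 1.497 and 1.58.

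*Bak1*, which encodes the effector that resides in the mitochondrial membrane, was at 9.86, 9.91 and 9.84 in M0505 cells and at 10.30, 10.35 and 10.35 in STOSE cells. Its spread was among the smallest of the members, with SDs of 0.04 and 0.03. It rose by 0.46 (standard error 0.06, 95% interval 0.33 to 0.59, adjusted p = 0.000145 from limma), or 1.38-fold. A dimmer *Bak1* probe set differed by 0.12, between means of 5.67 and 5.79.

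*Bax*, which encodes the effector that moves from the cytosol to mitochondria and is a known p53 target, was at 8.13, 8.04 and 8.10 in M0505 cells and at 8.48, 8.26 and 8.24 in STOSE cells. The lines did not overlap, but the highest M0505 array came close to the lowest STOSE array. It rose by 0.23 (standard error 0.08, 95% interval 0.06 to 0.41, limma adjusted p = 0.0318), or 1.18-fold. This call was lost under the methods' t-test with the same adjustment (adjusted p = 0.0828) and without M0505 replicate 2 (0.101), M0505 replicate 3 (0.0725) or STOSE replicate 1 (0.0758).

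**Figure D2:**
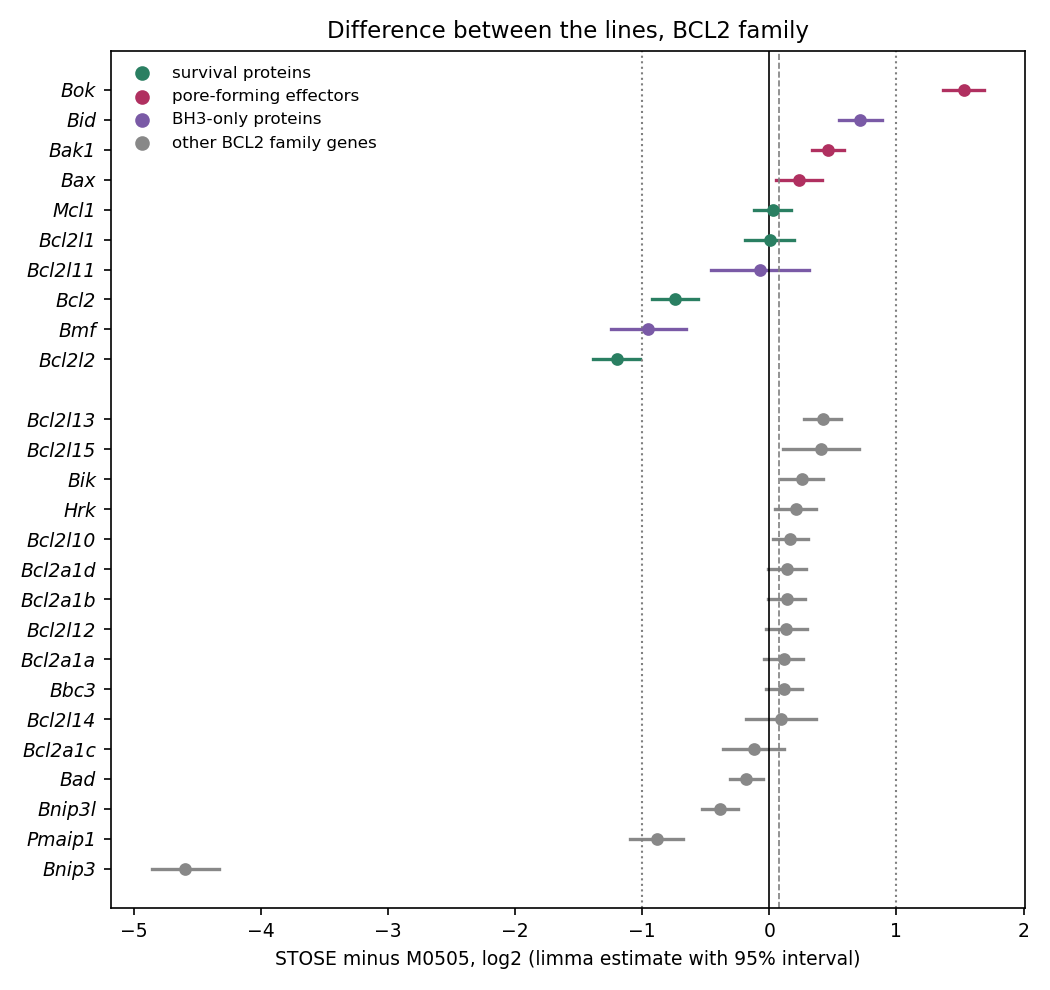
Difference STOSE minus M0505 in log2 units (horizontal axis) for the 10 members, coloured by role, and 16 other BCL2 family genes in grey, as the limma estimate (point) with its 95% interval (line). Dotted lines mark 2-fold in either direction and the dashed line marks the median of all genes, 0.08. *Bok* and *Bcl2l2* lie past 2-fold in opposite directions, *Bmf* lies just inside it, and *Bnip3* stands far to the left, with STOSE arrays under the olfactory receptor percentile.

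The BH3-only genes went different ways. *Bid*, whose product links death receptors to mitochondria once caspase-8 has cut it, was at 8.42, 8.22 and 8.24 in M0505 cells and at 9.03, 9.06 and 8.93 in STOSE cells. The lines did not overlap. *Bid* rose by 0.72 (standard error 0.07, 95% interval 0.55 to 0.89, limma adjusted p = 5.90e-05), which is 1.64-fold. *Bmf*, which encodes a BH3-only protein tied to the actin cytoskeleton and to loss of attachment, was at 7.05, 7.28 and 7.20 in M0505 cells and at 6.41, 5.93 and 6.34 in STOSE cells. All 3 STOSE arrays were lower, and STOSE replicate 2 was the lowest. It fell by 0.95 (standard error 0.13, 95% interval −1.24 to −0.66, adjusted p = 0.000277 from limma), which is 1.93-fold lower and just short of the limit for a called change. Without M0505 replicate 1, STOSE replicate 1 or STOSE replicate 3 its difference was −1.02, −1.04 or −1.01 and past that limit.

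*Bcl2l11*, the source of BIM, was at 8.06, 7.86 and 7.75 in M0505 cells and at 8.23, 7.67 and 7.55 in STOSE cells. In each line replicate 1 stood above the rest, and the STOSE arrays bracket the M0505 arrays. The difference of −0.07 did not pass the test (standard error 0.17, 95% interval −0.46 to 0.32, adjusted p = 0.738), and its sign turned under a further quantile normalization (0.0062) and under median centring (0.13). The SD among STOSE arrays was 0.36, at the 99.0th percentile of all genes, and that among M0505 arrays was 0.16, at the 85.3rd. Without STOSE replicate 1 the difference was −0.28 and passed (limma adjusted p = 0.0469), and without M0505 replicate 1 it was 0.012 and did not pass. As replicate 1 was highest in both lines, leaving it out of 1 line alone moves the difference. With a replicate block in the limma model the difference was −0.07 and did not pass (adjusted p = 0.518).

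Replicate 1 stood out beyond *Bcl2l11*. In 5 of the 10 members, *Bcl2*, *Bcl2l1*, *Mcl1*, *Bax* and *Bcl2l11*, replicate 1 was the highest of the 3 arrays in both lines, which held for 18.4% of all genes. *Ddit3*, which encodes the stress factor CHOP and was singled out after its values were seen, showed the same order more widely, at 7.81 against 7.14 and 7.03 in M0505 cells and at 7.67 against 6.93 and 6.80 in STOSE cells. *Ddit3* did not differ between the lines by the test (−0.19, standard error 0.26, limma adjusted p = 0.551). *Bcl2*, *Bcl2l2*, *Bak1*, *Bok*, *Bid* and *Bmf* each kept an adjusted p under 0.05 with any single array omitted, and *Bax* did not. Replicate 1 of both lines was not left out together, and its part in the results was not tested beyond that.

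**Figure D3:**
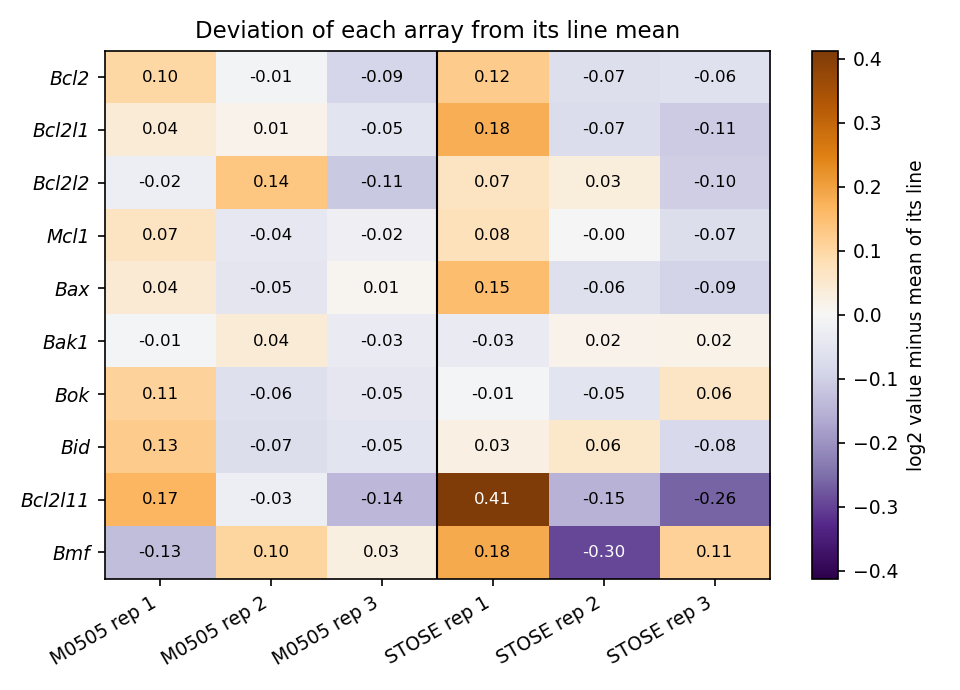
Log2 value of each array minus the mean of its line (colour and printed number) for the 10 members in rows and the 6 arrays in columns, with a line between M0505 and STOSE. Replicate 1 of STOSE is 0.41 above its line mean for *Bcl2l11*, the largest deviation shown, and *Bak1* deviates least.

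The other BCL2 family genes were described from a list of 16. Of these, 5 rose, 4 fell and 7 did not pass, and 1 was called changed, beside 56.5% and 12.5% of all genes. With the arrays centred on their medians, which adds 0.20 to the difference of every gene, the split was 11 higher and 3 lower. *Bnip3*, a BH3-like gene induced by hypoxia whose protein marks mitochondria for removal, carried the only called change of the list. It was at 8.59, 8.74 and 9.02 in M0505 cells and at 4.31, 4.17 and 4.08 in STOSE cells, so all 3 STOSE arrays lay under the olfactory receptor percentile of 4.74. By this brighter probe set *Bnip3* fell (adjusted p = 1.91e-08 from limma). With its STOSE arrays set to that percentile it was at least 16.4-fold lower. That bound does not hold for the second, dimmer probe set. It differed by −2.16 log2 units, with STOSE arrays at 4.94, 5.16 and 4.75. *Bnip3l*, its paralog with a related role in mitophagy, fell by 0.39 (adjusted p = 0.000735).

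*Pmaip1*, which encodes the MCL1-binding BH3-only protein NOXA, fell from 7.14 ± 0.12 to 6.25 ± 0.14 (SD, n = 3 each), by 0.89 (standard error 0.09, limma adjusted p = 5.70e-05), under 2-fold. *Bbc3*, the source of PUMA and like *Pmaip1* and *Bax* a p53 target, differed by 0.11 and did not pass (adjusted p = 0.152), though it did after a further quantile normalization (0.19, adjusted p = 0.0405) and after median centring (0.31, adjusted p = 0.00276). *Trp53* itself rose by 0.21 (adjusted p = 0.0116). *Bcl2l13*, a mitochondrial family member, rose by 0.42 (adjusted p = 0.000539). The BH3-only genes *Bik* and *Hrk* rose by 0.26 and 0.21 (adjusted p = 0.0158 and 0.0331), and *Bad* fell by 0.18 (adjusted p = 0.0270), a fall that did not pass after a further quantile normalization and turned to 0.02 after median centring. *Bcl2l12* did not pass (0.13, adjusted p = 0.135), but did after the quantile normalization (0.23, adjusted p = 0.0161). The 7 genes *Bcl2a1a*, *Bcl2a1b*, *Bcl2a1c*, *Bcl2a1d*, *Bcl2l10*, *Bcl2l14* and *Bcl2l15* had means under 4.74 in both lines. The *Bcl2a1* copies are near identical, so their probe sets cannot be told apart with certainty. Of those 7, *Bcl2l10* (0.17, adjusted p = 0.0446) and *Bcl2l15* (0.41, adjusted p = 0.0277) passed the test at that level of signal, but neither passed after the quantile normalization (adjusted p = 0.338 and 0.0723).

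Downstream of the pores, 4 of 9 apoptosome and mitochondrial genes rose, 1 fell and 4 did not pass. Of all genes, 31.6% rose, 24.8% fell and 43.5% did not pass. The share of this list that passed, 55.6%, lay near the 56.5% of all genes. On the list 0 were called changed, against 12.5% of all genes, and the median was 0.11. After median centring, with its shift of 0.20 for every gene, 7 of the list were higher and 1 lower, and after quantile normalization 3 and 2. *Diablo*, *Htra2*, *Endog* and *Cycs*, whose products leave the mitochondria, rose by 0.35, 0.28, 0.30 and 0.19, and *Cycs* did not pass after quantile normalization (0.099, adjusted p = 0.168). *Aifm1*, which encodes apoptosis-inducing factor, fell by 0.81 (standard error 0.06, limma adjusted p = 8.26e-06). *Apaf1*, the scaffold of the apoptosome, was at 8.07 and 8.08 and did not pass (adjusted p = 0.987). Each of the 7 caspases passed the adjusted p, against 56.5% of all genes, with 4 higher, 3 lower, 0 past 2-fold, a median of 0.50 and *Casp6* (−0.92, adjusted p = 0.000206) largest in size. The initiator *Casp9* rose by 0.50 and *Casp8* fell by 0.54.

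The list of inhibitor of apoptosis proteins, only some of which bind caspases or feed survival signaling, held 2 of the 4 called genes outside the members. Of 9 measured, 7 rose and 2 fell, against 31.6% and 24.8% of all genes, and the median was 0.37. *Naip1* did not pass after quantile normalization (adjusted p = 0.0615), which left 6 higher. *Naip2* was at 4.45, 3.89 and 4.16 in M0505 cells and at 6.90, 7.22 and 7.15 in STOSE cells. It rose (adjusted p = 7.66e-07 from limma), and with the M0505 arrays, all under 4.74, set to that percentile it was at least 5.09-fold higher. The *Naip* genes are close copies, and *Naip1*, *Naip5* and *Naip6* rose by 0.26, 0.73 and 0.95 from similar background levels, so cross-hybridization cannot be told apart from change. *Birc5*, which encodes survivin and is also a mitotic gene, was at 7.90, 7.75 and 7.64 in M0505 cells and at 9.01, 9.01 and 8.99 in STOSE cells, a rise of 1.24 (standard error 0.08, limma adjusted p = 2.54e-06). *Xiap*, whose product blocks caspases directly, and *Birc2* fell by 0.70 and 0.65.

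Of 10 death receptor pathway genes, 3 rose, 5 fell and 2 did not pass, against 31.6%, 24.8% and 43.5% of all genes. The median was −0.27, and 0 were called, against 12.5% of all genes. Among those that rose, *Fasl* had means of 4.00 in M0505 and 4.24 in STOSE cells, under 4.74 in both lines. *Tnfrsf21*, a death receptor gene, was the largest in size at −0.88 (adjusted p = 0.000177). *Fas* rose by 0.35 while the adaptor *Fadd* fell by 0.45, and *Cflar*, the caspase-8 inhibitor gene, lay just outside the threshold (−0.29, adjusted p = 0.0502). Of 16 regulators of BCL2 family genes and proteins, 3 rose, 8 fell and 5 did not pass, beside those same shares of all genes. Their median was −0.18. The kinase gene *Pim1*, whose product phosphorylates BAD, was the only one called, at 11.18, 11.17 and 11.16 in M0505 cells and 9.81, 9.89 and 9.90 in STOSE cells, a fall of 1.30 (standard error 0.06, limma adjusted p = 3.84e-07). *Foxo3*, a transcription factor known to drive *Bcl2l11*, fell by 0.96 (adjusted p = 5.01e-06). Of its family, *Foxo1* rose by 0.36 (adjusted p = 0.00114) and *Foxo4* fell by 0.34 (adjusted p = 0.0395), the latter not past the test under either scaling alternative. For proteins that set MCL1 turnover, the ligase component gene *Fbxw7* rose by 0.50 and the deubiquitinase gene *Usp9x* fell by 0.37, a fall not past the test after median centring (−0.17, adjusted p = 0.0666). The ligase gene *Huwe1* did not pass (−0.09, adjusted p = 0.229). Median centring gave 4 higher and 2 lower death receptor genes and 6 higher and 3 lower regulators. It adds 0.20 to the difference of every gene, so a move towards higher is not particular to these 2 lists.

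**Figure D4:**
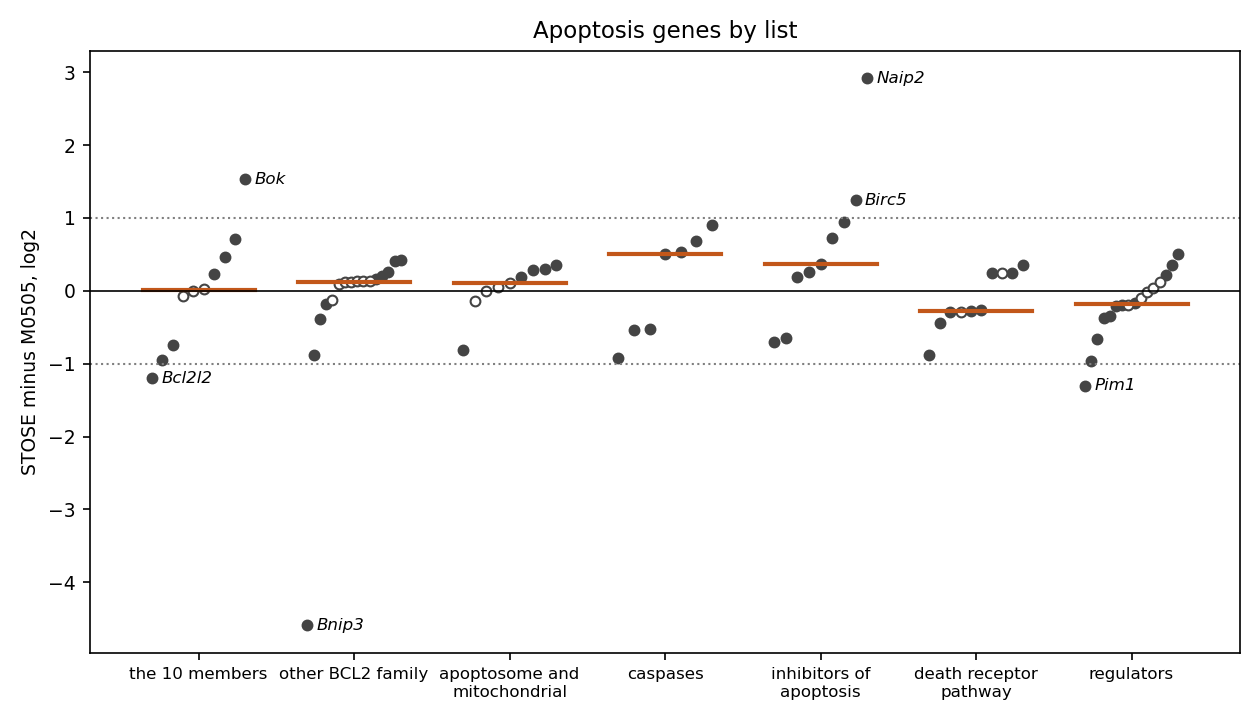
Difference STOSE minus M0505 in log2 units (vertical axis) for the genes of the 10 members and of 6 lists of other apoptosis genes, ordered by value within each list. Filled points had an adjusted p under 0.05, open points did not, orange bars are list medians and dotted lines mark 2-fold. Only 6 named genes lie past 2-fold, 3 above (*Bok*, *Birc5*, *Naip2*) and 3 below (*Bcl2l2*, *Pim1*, *Bnip3*).

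The chromosomal surroundings of the members were read as 20 neighbouring genes each, in the gene order of GRCm38.p6. The table names no build, so no coordinates of its probe sets are given. The median difference of the neighbours ran from −0.02 (*Bcl2l2*, chromosome 14) to 0.24 (*Bmf*, chromosome 2). For *Bok*, on chromosome 1, the neighbours had a median of 0.03 with 0 called higher and 4 lower. The neighbours of *Bcl2l2* had 4 called lower and 0 higher. Those of *Bcl2l11* went the other way, with 4 called higher and 1 lower, and those of *Bmf* had 2 higher and 0 lower. Of all genes, 4.90% were called higher and 7.59% lower. Whether members and their neighbours changed together was not tested. *Bcl2l1*, *Bcl2l11* and *Bmf* share chromosome 2, whose genes had a median of 0.08, and differed by 0.0041, −0.07 and −0.95. *Bcl2* and *Bok* share chromosome 1, with a median of 0.10, and moved in opposite directions.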

How the data were processed

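The authors hybridized total RNA of M0505 and STOSE cells to Affymetrix Mouse Gene 1.0 ST arrays and deposited 1 table of log2 RMA values, background corrected, quantile normalized and summarized per probe set. Per the labels this was done in Affymetrix Expression Console, and the version, the annotation release and the genome build are not given in the sources used here. The deposited mean, ratio and linear fold change columns hold the authors' own comparison and were not used. Columns were matched to samples by name, with 0 left over.

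Of 28944 probe sets, 23530 had a symbol, for 20405 genes, with the brightest probe set per gene. Linear models without covariates (limma 3.58.1 under R 4.3.3, moderated by eBayes) compared STOSE with M0505 at an adjusted p under 0.05 (Benjamini-Hochberg) and, for a called change, 2-fold. Groups of 3 arrays limit the precision. Tested on simulated data of 20405 genes for this comparison, the code recovered 99% of 100 genes changed by 1.5 and 100% of 100 genes changed by 3 log2 units, with 0 false calls. Only 200 genes were changed and only calls past 2-fold were counted. The simulation therefore does not test differences under 2-fold or calls at the adjusted p alone. *Birc7* was not matched on the table. Some genes of the lists are not reported here by name. Gene order (19899 genes, 97.5%) and promoter windows are from RefSeq on GRCm38.p6, and all 10 members matched a window.

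The members and the lists were chosen with earlier results of these data known. Named genes are the members, the other BCL2 family genes and, of the other lists, each called gene and the largest difference, with further genes of the lists named for their role after their values were seen. The alternatives were a further quantile normalization, centring on the median, leaving out dim genes, the mean of probe sets, the methods' t-test, limma with a trend and robust estimation, a replicate block, no fold limit and leaving out each array.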

Additional observations from a re-analysis of the deposited data

How the results depend on the processing

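The fold limit moved the counts most. With the adjusted p alone 11520 genes (56.5% of all), 7 of the members and 49 of the 67 other apoptosis genes passed. With the fold limit these were 2548 genes (12.5% of all), 2 and 4. Under the other alternatives run, *Bok* and *Bcl2l2* stayed called, between 1.497 and 1.73 and between −1.26 and −1.001. The sign of *Bcl2l11* turned to 0.0062 after a further quantile normalization and to 0.13 after median centring. With each array left out in turn the log2 difference ran from −0.28 to 0.060 for *Bcl2l11*, from −0.086 to 0.058 for *Bcl2l1*, from −0.011 to 0.062 for *Mcl1* and from −1.04 to −0.80 for *Bmf*, and the number of members called from 2 to 3. The sources of these differences were not tested. Replicate numbers are shared by both lines, but same-numbered arrays deviated together with r of 0.26, 0.042 and 0.25. Because the second pair showed almost none, the numbers were not taken as pairs, although 5 of 6 arrays correlated best with their own number, a hint from the data and not the design. The replicate block gave 2549 genes, 2 members and 4 other apoptosis genes called. Array signal near the olfactory receptor level limits what the dim genes show.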
